A study of Mus musculus with 6 samples.

Results

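The 10 genes described here encode receptors and SMAD proteins, grouped to describe how cumulus cells receive GDF9 and BMP15, the growth factors that the oocyte secretes. They are Bmpr1a, Bmpr1b, Bmpr2, Tgfbr1 and Tgfbr2 on the receptor side and Smad1, Smad2, Smad3, Smad4 and Smad5 on the signalling side. They were chosen by gene symbol, and all 10 were measured, by 32 of the 45101 probe sets of the array. When 1 probe set stood for each gene, they were 10 of 18194 genes.

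Both factors belong to the TGF-beta superfamily, whose dimers bring together type II and type I receptors, which are serine/threonine kinases. The type II receptor phosphorylates the type I receptor, and this in turn phosphorylates receptor-regulated SMADs that enter the nucleus with SMAD4. GDF9 signals through BMPR2 and TGFBR1 to SMAD2 and SMAD3, whereas BMP15 signals through BMPR2 and BMPR1B to SMAD1 and SMAD5. In antral follicles these oocyte signals keep the cumulus phenotype and enable cumulus expansion. TGFBR2, the type II receptor for TGF-beta ligands, is a member that lies outside the routes given here for GDF9 and BMP15.

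Wild-type female mice aged 21 days were primed with 5 IU of eCG, a hormone that stimulates follicle growth, for 46 h. They then received no hCG (hCG-0h, 3 samples) or 5 IU of hCG, the hormone that sets off ovulation, for 6 h (hCG-6h, 3 samples), and the labels give an age of 23 days at isolation. Per the growth protocol each sample was the cumulus cells of 50 cumulus-oocyte complexes, handled in medium with 5 µM milrinone, whereas the RNA protocol speaks of the complexes, and the labels do not settle which is right. Each sample was put on 1 single-colour Affymetrix array. Nothing in the labels ties a sample to animals of its own, and p-values thus measure the spread between these 3 and 3 samples (n = 3 in each group throughout), which may be technical. Hormone and elapsed time cannot be told apart, because no group without hCG was kept for the same 6 h. The titles give 6 h for all 3 hCG-6h samples, whereas the descriptions of samples 2 and 3 give 7 h and 8 h.

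All values are log2 levels after RMA, the robust multi-array average. A difference is the mean at hCG-6h minus the mean at hCG-0h, tested with limma. Its p-values were adjusted (Benjamini-Hochberg) across every gene or every probe set, and passed under 0.05. Of 10 measured markers of the labelled cell type, cumulus and granulosa, 5 did not pass. Among them Inha, Inhba and Gja1 lay between 12.97 and 13.66 in all 6 samples. Foxl2 stood at means of 10.07 and 9.77, and Amh at 8.82 and 7.79. The other 5 passed and fell, namely Slc38a3 (from 9.29 to 5.59), Fshr (9.32-fold), Amhr2 (6.29-fold), Npr2 (4.48-fold) and Nr5a2 (2.96-fold). At an unadjusted p under 0.05 (limma), 6 of the 10 were lower and 0 higher. The median difference of the 10 was -1.30, and their summed linear level went from 47287 to 47967 at hCG-0h to 34270 to 36244 at hCG-6h without overlap. This sum moved down, as did Bmpr1b and Bmpr2, whereas Tgfbr2, Smad1 and Smad3 rose. Its part in the members' differences was not tested. Most oocyte markers lay low and flat, such as Zp2 at means of 3.68 and 3.63 and Zp3 at 4.68 and 4.85. Of 14 measured oocyte markers, however, Ooep passed, with a rise from 6.53 to 8.47. At an unadjusted p under 0.05 (limma) 3 of the 14 were higher and 0 lower. Among these were Dppa3, from 6.67 to 7.63, and Gdf9, from 5.65 to 6.11. The summed linear level of the list was 601 to 752 at hCG-0h and 990 to 1116 at hCG-6h, and the groups did not overlap in it. The part of oocyte RNA in the results was not tested.

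The upstream sequences of 4 members that passed, all but Smad3, are shown to give their letters and motif matches beside the values. Each line holds the 250 bases before an annotated start, from RefSeq on GRCm38.p6, 5′ to 3′ along the gene. Capitals mark matches on either strand to the SMAD box CAGAC, the GC-rich SMAD motif GGCGCC, the cAMP response element TGACGTCA, its shorter form TGACG, which lies inside the full element, or the AP-1 site TGANTCA. The Bmpr1b window, the most upstream of 3 for that gene, is chr3:141982265-141982514 (minus strand), and that of Bmpr2 is chr1:59764029-59764278 (plus strand). Those of Tgfbr2 and Smad1 are chr9:116175364-116175613 and chr8:79399429-79399678 (both minus strand).

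Bmpr1b: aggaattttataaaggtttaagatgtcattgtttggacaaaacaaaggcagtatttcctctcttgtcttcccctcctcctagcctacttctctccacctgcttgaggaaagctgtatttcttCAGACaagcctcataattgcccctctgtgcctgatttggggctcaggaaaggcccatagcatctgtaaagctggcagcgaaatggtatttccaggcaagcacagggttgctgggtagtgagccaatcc
Bmpr2: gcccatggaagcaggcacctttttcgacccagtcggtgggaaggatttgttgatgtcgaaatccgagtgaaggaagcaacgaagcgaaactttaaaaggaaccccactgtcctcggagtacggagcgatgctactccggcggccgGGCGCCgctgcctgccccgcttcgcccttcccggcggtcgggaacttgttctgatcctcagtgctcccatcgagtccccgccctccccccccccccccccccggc
Tgfbr2: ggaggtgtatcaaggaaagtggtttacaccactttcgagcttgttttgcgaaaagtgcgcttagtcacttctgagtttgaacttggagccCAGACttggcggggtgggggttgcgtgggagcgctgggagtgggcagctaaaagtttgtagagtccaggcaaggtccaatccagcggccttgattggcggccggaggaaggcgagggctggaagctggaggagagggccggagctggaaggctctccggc
Smad1: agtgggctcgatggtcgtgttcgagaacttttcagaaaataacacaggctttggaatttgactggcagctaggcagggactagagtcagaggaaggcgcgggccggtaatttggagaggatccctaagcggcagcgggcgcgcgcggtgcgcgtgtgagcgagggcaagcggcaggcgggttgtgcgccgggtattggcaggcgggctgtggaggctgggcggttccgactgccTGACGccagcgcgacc

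The printed Bmpr1b window was 46.8% G and C, against 64% for Bmpr2, 58.4% for Tgfbr2 and 63.6% for Smad1. It held 1 SMAD box, as did the Tgfbr2 window, and 42.2% of all 32851 windows of this length in the table hold one. The Bmpr2 window held 1 GC-rich SMAD motif (9.59% of all windows) and the Smad1 window 1 short cAMP response element (17.8%). No match lay in the Smad3 window or in the Bmpr1b window chr3:141931421-141931670, neither of which is printed. In all, 13 windows of 8 members were in the table. Of these 5 held a SMAD box, 4 the GC-rich motif and 2 the short cAMP response element, while the full element (1.55% of all windows) and the AP-1 site (6.75%) were not found in these letters. A match describes the letters alone.

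Of the 10 genes, 3 were higher at hCG-6h (Tgfbr2, Smad1 and Smad3), 2 were lower (Bmpr1b and Bmpr2) and 5 did not pass (limma, adjusted p under 0.05). Over all 18194 genes 10.8% were called higher and 10.5% lower, together 21.3%. With so few members the difference between 5 of 10 and that background is not tested here. The median difference of the 10 genes was -0.18 on the log2 scale, against 0.0067 over all genes. The groups were apart, with no overlap of their values, in 8 of the 10 genes and in 37.9% of all genes. Only hCG-6h sample 1 has a description that also gives 6 h. With it alone in its group, the differences of Bmpr1b, Bmpr2, Tgfbr2, Smad1 and Smad3 were -1.16, -0.49, 1.22, 1.33 and 0.64. A group of 1 sample cannot show whether the differing descriptions matter. In these bulk samples fewer cells of a type and less RNA per cell cannot be told apart.

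**Figure D1:**
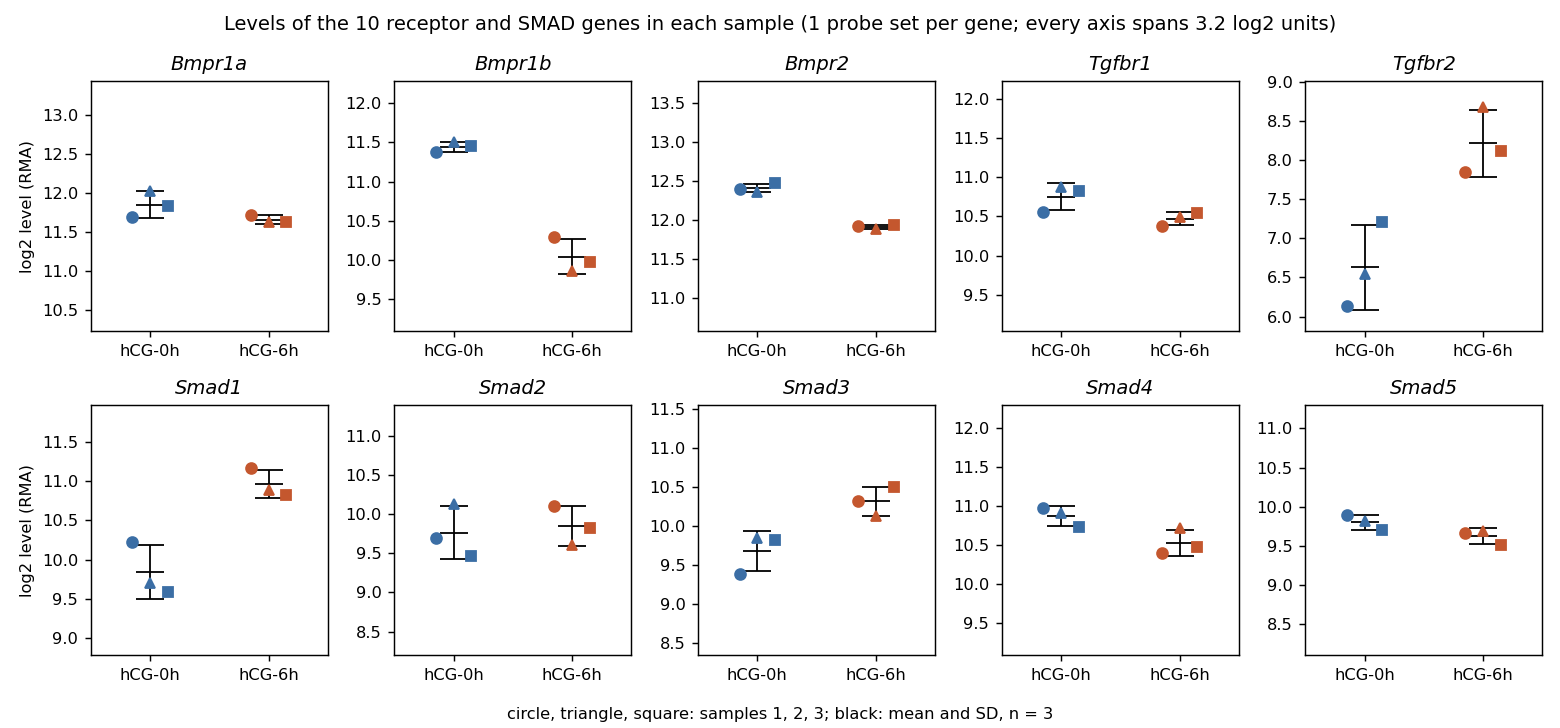
Log2 RMA level of each member in each sample, from the probe set with the highest mean, with hCG-0h in blue, hCG-6h in orange, and mean and SD in black. Bmpr1b and Bmpr2 lie lower and Tgfbr2, Smad1 and Smad3 higher in all 3 hCG-6h samples than in any hCG-0h sample, while the Bmpr1a and Smad2 groups overlap.

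Bmpr1b, the type I receptor for BMP15, fell the most. Its levels (probe set 1437312_at) were 11.38, 11.51 and 11.45 in hCG-0h samples 1, 2 and 3 and 10.29, 9.86 and 9.97 in hCG-6h samples 1, 2 and 3. The groups lay more than 1 log2 unit apart, and within each group the samples stood close together. The difference was -1.41 ± 0.14 (SE), with a 95% interval of -1.73 to -1.08, a 2.65-fold lower level (limma adjusted p = 0.000654). Its other probe sets gave -1.40 and -1.56, and all 3 passed on their own, with adjusted p between 0.00131 and 0.00401.

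Bmpr1a encodes a related type I receptor of bone morphogenetic proteins. Its levels were 11.69, 12.03 and 11.83 at hCG-0h and 11.72, 11.63 and 11.63 at hCG-6h (1425491_at). The groups overlapped, and the difference of -0.19 ± 0.12 (SE) had a 95% interval of -0.47 to 0.09 (limma adjusted p = 0.331). Over its 6 probe sets the differences ran from -0.26 to 0.12, 3 above and 3 below 0, with overlapping groups in each.

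Within an array, the log2 difference of Bmpr1b from Bmpr1a moved by -1.22 between hCG-0h and hCG-6h, a factor of 2.32, with SDs of 0.11 and 0.17 (n = 3 each). This is 1 of 6 pairs of members, all chosen after the values were seen, so their differences are given as a description with no test. An exact test of 3 samples against 3 could in any case not go below p = 0.1.

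Bmpr2, the type II receptor shared by GDF9 and BMP15, had a smaller difference. Its levels were 12.40, 12.36 and 12.47 at hCG-0h and 11.92, 11.88 and 11.93 at hCG-6h (1434310_at). The samples of a group differed by at most 0.11, and the groups stood well apart. The difference was -0.50 ± 0.09 (SE; 95% interval -0.72 to -0.28), a 1.41-fold lower level (limma adjusted p = 0.0102). Among all probe sets 1434310_at passed as well (limma adjusted p = 0.0171). That call ended without hCG-0h sample 3 or any 1 hCG-6h sample (adjusted p up to 0.0613). A second probe set passed at -0.61 (limma adjusted p = 0.0357 over all probe sets), a call lost when any 1 sample was left out (0.0588 to 0.105). The remaining one, at 6.89, 6.51 and 6.68 against 5.87, 5.84 and 6.51, gave -0.62 but with groups that touched at 6.51, and did not pass (limma adjusted p = 0.11). Relative to Bmpr2 within an array, Bmpr1b moved by -0.91, a factor of 1.87.

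Tgfbr1, the type I receptor for GDF9, stood at 10.56, 10.88 and 10.82 at hCG-0h and at 10.38, 10.49 and 10.54 at hCG-6h (1420894_at). The hCG-6h samples lay lower without overlap, but by little, since the highest of them was 0.02 under the lowest hCG-0h sample. The difference of -0.28 ± 0.12 (SE; 95% interval -0.57 to 0.01) did not pass (limma adjusted p = 0.162). Its 3 probe sets gave similar differences, from -0.33 to -0.27.

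Tgfbr2, the type II receptor for TGF-beta ligands, went the other way. Its levels were 6.14, 6.54 and 7.21 at hCG-0h and 7.85, 8.68 and 8.11 at hCG-6h (1426397_at). All hCG-6h samples were higher, and the hCG-0h samples were the most spread of any member, with sample 3 the highest of them. The difference was 1.58 ± 0.32 (SE; 95% interval 0.82 to 2.34), 3.00-fold higher (limma adjusted p = 0.0141). Tested among all probe sets, it passed at 0.0214, a call that ended when sample 1 or 2 of hCG-0h, or sample 2 or 3 of hCG-6h, was left out (0.0575 to 0.0684).

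The size of that rise depended on the probe set. At hCG-0h 1426397_at was dimmer than 1425444_a_at (means of 6.63 and 6.84), and at hCG-6h it was brighter (8.21 and 7.77). Its choice as the probe set with the highest mean thus rested on the hCG-6h values. The probe set 1425444_a_at gave 0.92 ± 0.45 (SE), from 6.75, 7.01 and 6.77 to 7.22, 7.20 and 8.88. In it hCG-6h sample 3 lay far above the other samples (limma adjusted p = 0.243). The last lay near the floor of the arrays, at 3.29 to 3.42 against 3.41 to 3.85, where RMA compresses differences, and gave 0.32 with overlapping groups. Averaged over the 3 probe sets the difference was 0.94.

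Tgfbr2 is also expressed by endothelial and stromal cells, so their markers were set beside it. Of 5 endothelial markers none passed after adjustment by limma and 2 were higher at an unadjusted p under 0.05. Cdh5 stood at 6.46 and 8.09 (limma adjusted p = 0.053) and Kdr at 5.02 and 5.69, both higher at hCG-6h without overlap. Pecam1, Tek and Emcn stood at means between 3.59 and 5.54, with overlapping groups. The summed linear level of the 5 was 163 to 299 at hCG-0h and 335 to 548 at hCG-6h, so it moved with Tgfbr2, and its part in the result was not tested. Of 6 stromal markers none passed after adjustment and 1 was lower at an unadjusted p under 0.05, with sums of 348 to 550 and 377 to 445, which overlapped.

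Both type II receptors among the members passed, in opposite directions. Within an array Tgfbr2 moved by 2.08 relative to Bmpr2, a factor of 4.24, and by 1.87 relative to Tgfbr1, a factor of 3.65. With the mean of all probe sets of a gene these changes were 1.52 and 1.24.

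Smad1, which carries signals of the bone morphogenetic protein branch, rose. Its levels were 10.23, 9.70 and 9.58 at hCG-0h and 11.17, 10.89 and 10.83 at hCG-6h (1448208_at). Sample 1 was the highest of each group, and the groups did not overlap. The difference was 1.13 ± 0.19 (SE; 95% interval 0.66 to 1.59), 2.18-fold higher (limma adjusted p = 0.00774). A second probe set passed with 1.06 (limma adjusted p = 0.004), and the dimmest gave 0.99 without passing (limma adjusted p = 0.119), with 8.39 in hCG-6h sample 1 against 7.15 and 7.18 in the others.

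Smad5, the close relative of Smad1 in that branch, did not pass. It stood at 9.89, 9.82 and 9.70 at hCG-0h and at 9.67, 9.69 and 9.51 at hCG-6h (1433641_at), without overlap but with only 0.01 between the nearest samples. The difference was -0.18 ± 0.11 (SE; 95% interval -0.44 to 0.08; limma adjusted p = 0.308), and its 3 probe sets, from -0.29 to 0.25, did not share a sign. Within an array Smad1 moved by 1.31 relative to Smad5, a factor of 2.47.

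In the branch that GDF9 uses, Smad3 passed narrowly. Its levels were 9.39, 9.84 and 9.82 at hCG-0h and 10.32, 10.13 and 10.50 at hCG-6h (1454960_at). All 3 hCG-6h samples were higher, by 0.29 at the nearest pair. The difference was 0.63 ± 0.17 (SE; 95% interval 0.24 to 1.03), 1.55-fold higher (limma adjusted p = 0.0368). The call ended without any 1 of hCG-0h samples 1, 2 and 3 or hCG-6h samples 1 and 3 (adjusted p = 0.0719, 0.0564, 0.0624, 0.0942 and 0.111), and held only without hCG-6h sample 2 (0.0471). The same probe set missed the threshold when all 45101 probe sets were tested (limma adjusted p = 0.0529), and the other probe sets gave 0.38 and 0.47 without passing.

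Smad2, the partner of Smad3, overlapped between the groups. It stood at 9.70, 10.13 and 9.46 at hCG-0h and at 10.11, 9.60 and 9.82 at hCG-6h (1420634_a_at). The difference of 0.08 ± 0.21 (SE) had a 95% interval of -0.42 to 0.58, and the second probe set gave 0.19. Relative to Smad2, Smad3 moved by 0.55 within an array, with groups that overlapped.

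Smad4, the shared partner of both branches, stood at 10.98, 10.91 and 10.73 at hCG-0h and at 10.40, 10.72 and 10.47 at hCG-6h (1422487_at). Between hCG-6h sample 2 and hCG-0h sample 3 lay 0.01. The difference of -0.34 ± 0.13 (SE; 95% interval -0.65 to -0.04) did not pass (limma adjusted p = 0.115), and its 3 probe sets ran from -0.54 to -0.14, all below 0.

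**Figure D2:**
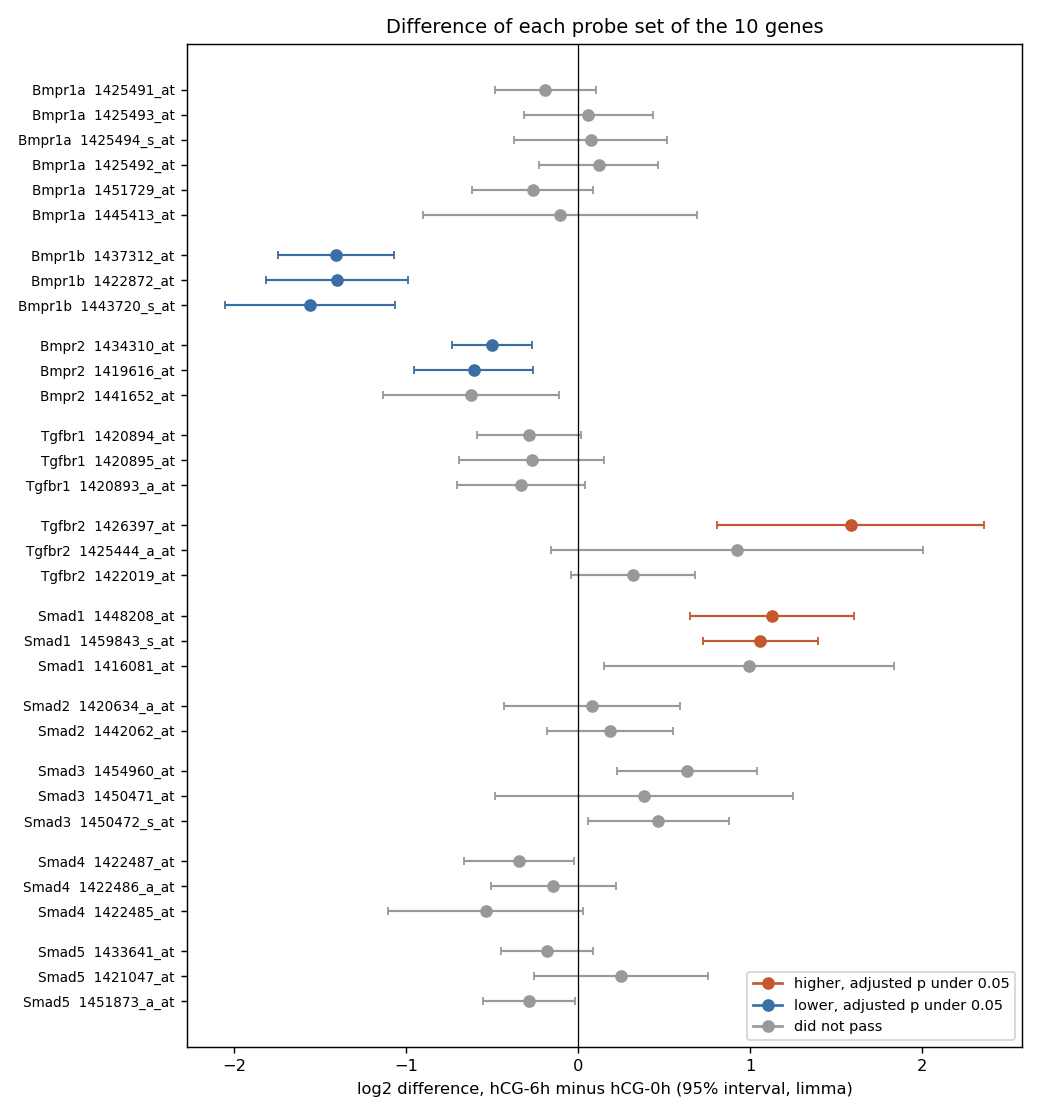
Log2 difference, hCG-6h minus hCG-0h, of each of the 32 probe sets, with limma's 95% interval, in orange where higher, blue where lower and grey where not passed after adjustment over all 45101 probe sets. The 3 Bmpr1b probe sets lie together near -1.4 to -1.56 and the 3 Smad1 probe sets near 1, whereas those of Tgfbr2 spread from 0.32 to 1.58.

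Taken probe set by probe set, 3 of 32 were called higher and 5 lower, and 24 did not pass. Over all 45101 probe sets 7.52% were called higher and 7.84% lower, together 15.4%. In 18 of the 32 the groups did not overlap, against 33.8% of all probe sets. Of the 10 members, Bmpr1b alone had every probe set called. In all, 8 members had probe sets of a single sign, the exceptions being Bmpr1a and Smad5. Probe sets of 1 gene share its transcripts and are not replicates.

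**Figure D3:**
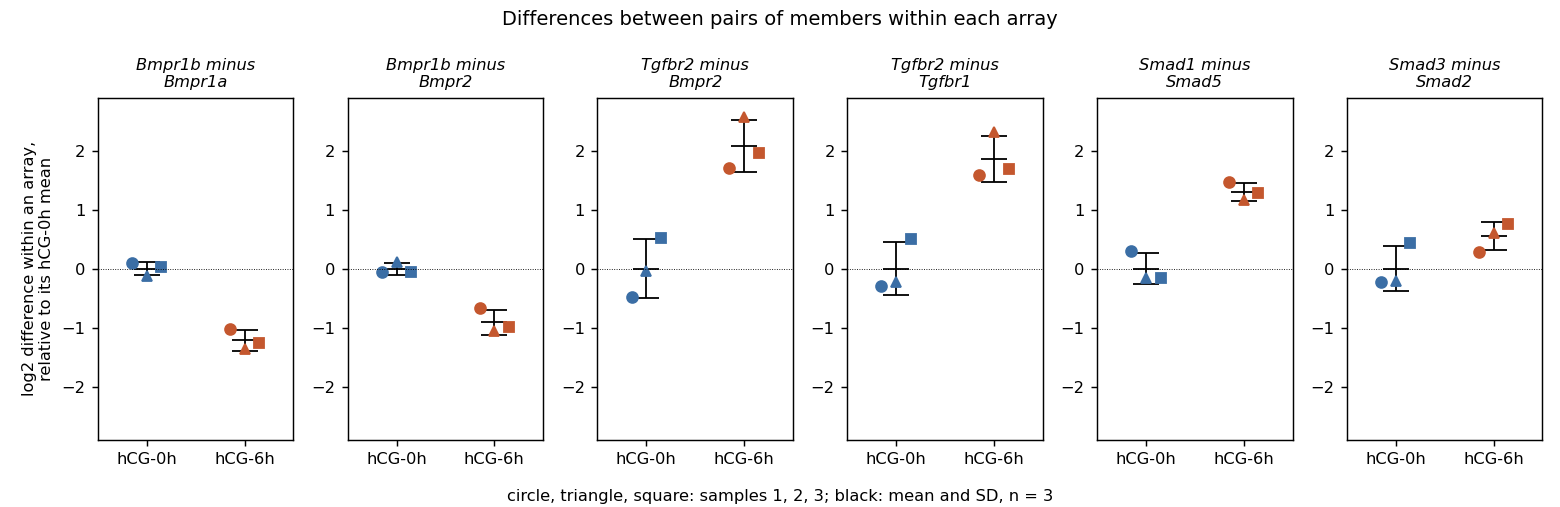
Log2 difference between members of a pair within each array, set to 0 at the hCG-0h mean, for hCG-0h (blue) and hCG-6h (orange), with mean and SD in black (n = 3 each). The groups are apart in 5 pairs and overlap for Smad3 and Smad2.

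The genes with a pattern most like that of Bmpr1b, the member with the smallest adjusted p, were Sult5a1, Dusp16 and Gabarapl1. Likeness was the root mean square difference over the 6 samples between log2 profiles centred on their means, 0.062, 0.084 and 0.087 for these genes. Such a pattern was common, since 109 genes lay within 0.2 of Bmpr1b by this measure. Sult5a1, a sulfotransferase gene, fell by 1.50 and Dusp16, a phosphatase of MAP kinases, by 1.34, and Gabarapl1, of the autophagy family of ATG8 proteins, by 1.33 on the log2 scale.

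Genes around the members were read from lists chosen with earlier results of these data known. Beside their counts stand the shares over all genes, 10.8% called higher and 10.5% lower. Of 9 ligands of the superfamily, 2 rose, 2 fell and 5 did not pass, with a median difference of 0.08. Gdf9 stood at 5.87, 5.64 and 5.43 at hCG-0h and at 6.22, 5.80 and 6.31 at hCG-6h, and Bmp15 between 4.86 and 5.03 in all 6 samples, and neither passed (limma adjusted p = 0.123 and 0.906). Tgfb1, which encodes a ligand of TGFBR2, was 6.99, 6.67 and 6.33 at hCG-0h and 10.11, 10.22 and 10.39 at hCG-6h, a rise of 11.9-fold with both of its probe sets called. Tgfb3, another such ligand, moved the opposite way, from 8.92, 9.73 and 9.56 to 6.43, 6.50 and 7.51, 6.02-fold lower. Both separated the groups by more than 1 log2 unit. Bmp2 was 2.78-fold lower, a call lost without hCG-0h sample 2 or 3 or any 1 hCG-6h sample (adjusted p 0.0765 to 0.103). Bmp6 rose 2.37-fold.

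All 3 proprotein convertases, which cut the precursors of these ligands, rose. Pcsk5 was 8.84, 9.72 and 9.21 at hCG-0h and 11.86, 12.08 and 11.90 at hCG-6h, 6.45-fold higher, with all 5 of its probe sets called. Pcsk6 rose 3.34-fold and Furin 3.05-fold (limma adjusted p between 0.000238 and 0.00437 for the 3).

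Among 11 measured extracellular antagonists and binders, 3 rose, 3 fell and 5 did not pass, with a median of 0.28. Bmper, a secreted regulator of bone morphogenetic proteins, was 6.63, 5.19 and 6.14 at hCG-0h and 10.49, 10.50 and 10.57 at hCG-6h, a rise of 23.2-fold from a dim level. Fstl1, a follistatin-like protein, rose 11.0-fold in the probe set used, and 1 of its 2 probe sets was called. Grem1, an antagonist of bone morphogenetic proteins known to be induced in cumulus cells by the oocyte, rose 3.65-fold. Chrdl1, a chordin-like antagonist, was 8.15, 7.47 and 6.72 at hCG-0h and 5.67, 6.38 and 6.19 at hCG-6h in its brightest probe set, 2.58-fold lower (limma adjusted p = 0.0409). None of its 4 probe sets was called when all probe sets were tested by limma, with differences of -1.37, -0.73, -0.68 and -0.09 (2 at an unadjusted p under 0.05). Twsg1, which binds bone morphogenetic proteins, was 1.77-fold lower, with 3 of 4 probe sets called, while its most variable probe set gave 0.70 and did not pass. Fst, which binds activin, was 1.33-fold lower, with 1 of 2 probe sets called. The Chrdl1 call held only without hCG-0h sample 3 and that of Fst only without hCG-0h sample 1 when single samples were left out, with adjusted p up to 0.117 and 0.0912 otherwise.

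Of 13 other receptors and co-receptors, 2 rose, 2 fell and 9 did not pass, with a median of -0.09. Tgfbr3, the co-receptor betaglycan, was 10.24, 10.11 and 10.34 at hCG-0h and 6.42, 7.35 and 7.14 at hCG-6h, 9.58-fold lower. Amhr2, the type II receptor for anti-Müllerian hormone, was 11.90, 11.66 and 11.79 and then 9.31, 8.62 and 9.46, 6.29-fold lower. These falls were larger than that of any of the 10 members, and all probe sets of both genes were called. Acvr1, a type I receptor that signals to SMAD1 and SMAD5, rose 2.46-fold, with 1 of 3 probe sets called. Acvr2b, a type II receptor for activins, was called 1.41-fold higher in its brightest probe set, but its probe sets did not share a sign. One gave -0.46, from 7.91, 7.71 and 7.54 to 7.25, 7.28 and 7.25, the brightest 0.50 and the other 0.59, and none of the 3 was called when all probe sets were tested (limma adjusted p = 0.0553, 0.0576 and 0.295; 2 at an unadjusted p under 0.05). The call in the gene fit held only without hCG-0h sample 3 when single samples were left out (adjusted p 0.0904 to 0.106 otherwise).

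Of 17 SMAD regulators 2 were higher, 1 lower and 14 did not pass, with a median of 0.11, while 21.3% of all genes were called. Pmepa1, a membrane protein that keeps SMAD2 and SMAD3 from the receptor, was 10.72, 10.58 and 10.52 and then 12.37, 12.42 and 12.45, 3.50-fold higher, with all 3 probe sets called. Smad7, the inhibitory SMAD that blocks type I receptors, was 8.91, 8.76 and 8.05 at hCG-0h and 10.18, 10.04 and 10.12 at hCG-6h, 2.91-fold higher, with both of its probe sets called. Tgif1, a nuclear corepressor of SMADs, was 1.86-fold lower. Smad6, named after its values were seen, stood at 6.63, 6.42 and 7.27 against 8.19, 6.76 and 8.55, with overlapping groups, and did not pass (limma adjusted p = 0.176).

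**Figure D4:**
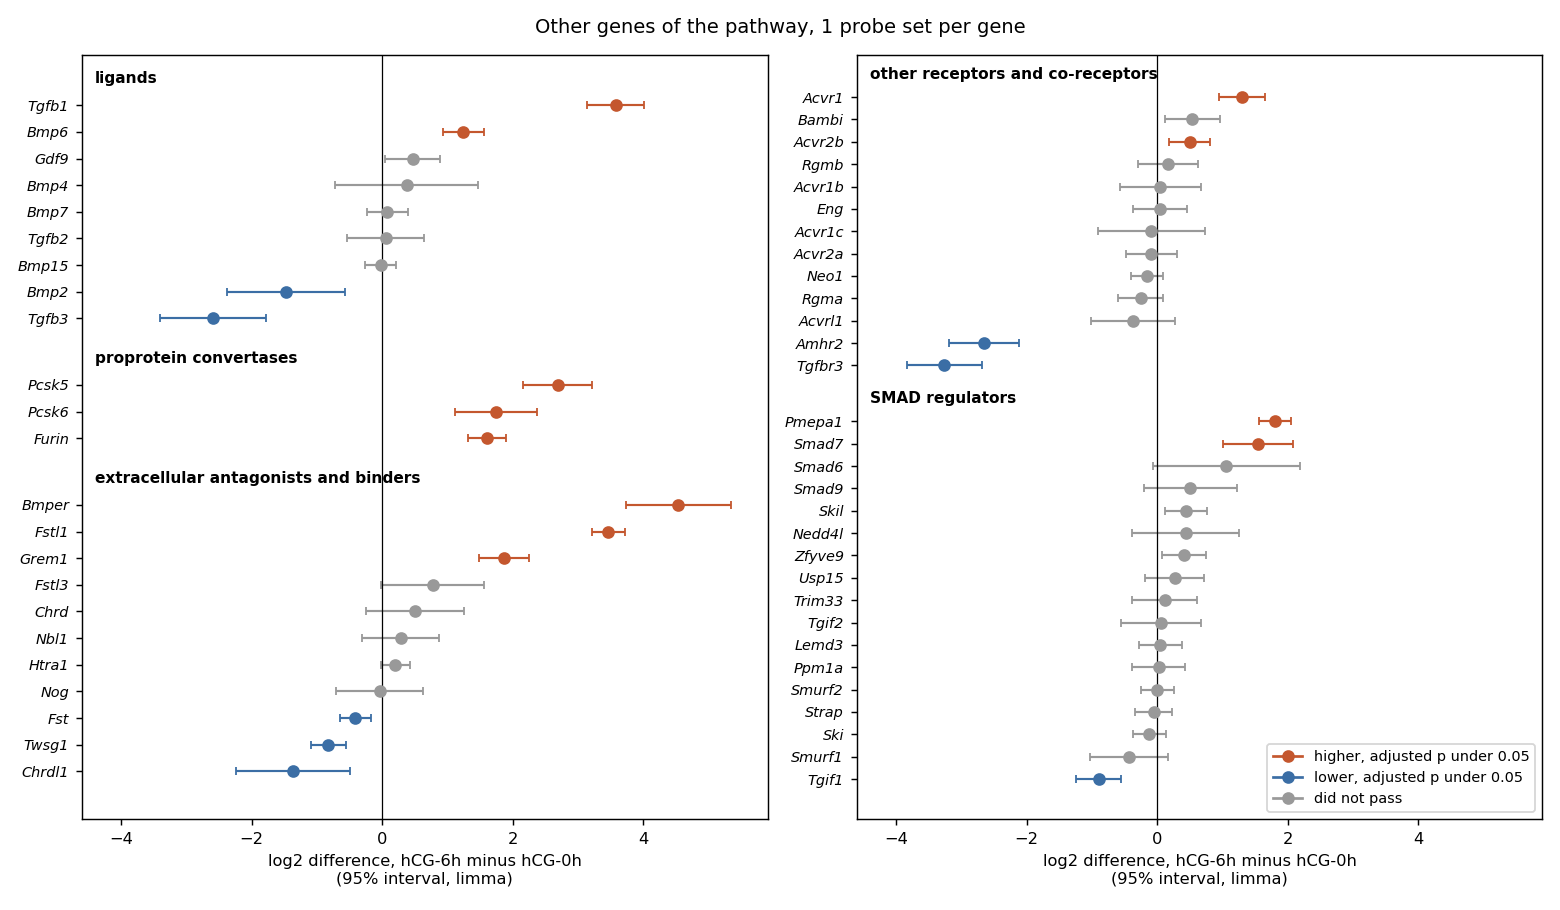
Log2 difference, hCG-6h minus hCG-0h, with limma's 95% interval, of the measured ligands, proprotein convertases, antagonists and binders (left) and other receptors and SMAD regulators (right), coloured by the call after adjustment over all genes. Tgfbr3 and Amhr2 lie far to the left, Bmper, Tgfb1 and Fstl1 far to the right, and most receptors and SMAD regulators lie near 0.

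Of 11 measured transcripts known to respond to SMADs or to the oocyte, 7 rose, 2 fell and 2 did not pass, with a median of 2.15. Their response to other signals of the ovulatory stimulus was not separated here. The 6 with the largest log2 differences were Ptx3 (7.91), Ptgs2 (6.22), Tnfaip6 (4.59) and Has2 (3.26), genes of cumulus expansion that rose, Slc38a3 (-3.70), an amino acid transporter gene that fell, and Id1 (2.49). The other gene that fell was Npr2 (-2.16), the receptor of C-type natriuretic peptide. Slc38a3 and Npr2 are also among the cumulus and granulosa markers above. Id1, a target of the bone morphogenetic protein branch, was 8.45, 8.24 and 6.76 at hCG-0h and 10.33, 10.33 and 10.27 at hCG-6h, a difference of 2.49 ± 0.42 (SE; limma adjusted p = 0.00687). The hCG-6h samples were nearly alike, and hCG-0h sample 3 was far below the others of its group. Id3 and Id4 rose by 1.89 and 2.15 on the log2 scale, and Id2 gave 1.09 without passing (limma adjusted p = 0.0947), though 1 of its 3 probe sets was called higher. These 3 were also lowest in hCG-0h sample 3, and they and Npr2 are named outside the rule, after their values were seen. Without that sample the difference of Id1 was 1.97 ± 0.12 (SE; limma adjusted p = 0.00061).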

How the data were processed

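Expression was measured on 6 single-colour Affymetrix arrays, 3 hCG-0h and 3 hCG-6h. Per the labels' protocols, a whole-transcriptome kit amplified the RNA. Values were deposited as log2 levels with 2 decimals. Scans went through GCOS and Expression Console 1.1 of Affymetrix with RMA, per the submitters' processing notes. RMA corrects background, quantile-normalises arrays and summarises probe sets. A build for the probe sets was not stated by any source at hand, and no detection calls were used. Array medians were 6.43 to 6.46, and the number of arrays limits the precision.

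Symbols came from the platform annotation: 34958 probe sets had 1 symbol, 932 several, and 9211 were not listed. For each gene the 1-symbol probe set with the highest mean level stood for it (18194 genes). A second fit used all 45101 probe sets. Both used limma 3.58.1 in R 4.3.3 (lmFit, eBayes, group as the only term, no filter, two-sided). Intervals are 95%. All probe sets of the members were reported. Of each other list the called genes with the largest differences, up to 6, were named, and Gdf9 and Bmp15 whatever their values. Genes outside this rule are said to be so or are markers. The members and lists were chosen with earlier results of these data known. Alternatives were other probe set rules, normalization again, median centring, moderated variance by trend, array weights, a filter on dim probe sets, a replicate block, hCG-6h sample 1 alone, and each sample left out. The scripts were tested on simulated data. Promoter windows came from RefSeq (GRCm38.p6), which held 8 of the 10 members. Markers of theca, of which 3 were measured, had 1 higher and 1 lower, and those of leukocytes none called of 6 by limma (1 at an unadjusted p under 0.05).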

Additional observations from a re-analysis of the deposited data

How the results depend on the processing

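Bmpr1b passed under all 15 other settings of the gene fit, with differences from -1.56 to -1.16. Tgfbr2 passed under 14, Bmpr2 and Smad1 under 13 each and Smad3 under 6, and the other 5 members passed under none. When hCG-6h sample 1 alone stood for its group, assuming that it varied like the others, the counts were 810 genes higher and 767 lower, 1121 probe sets higher and 1042 lower, 0 members higher (2 at an unadjusted p under 0.05, limma) and 1 lower, and 1 member probe set each way. With the probe set of largest variance for each gene, 1 member of 10 was higher and 1 lower, against 1828 and 1759 of all 18194 genes. Without each sample in turn, 3 to 4 member probe sets were lower in place of 5, with 3 without hCG-0h sample 3 or hCG-6h sample 1 or 2. Over all 45101 probe sets, 2394 to 2954 were lower in these fits in place of 3538. Samples with the same number did not deviate together across genes (correlations of 0.01, -0.02 and 0.03). With 3 samples in each group, this cannot decide whether such samples shared animals or handling. With the number as a replicate block 1670 genes were higher and 1594 lower, 2 members were higher and 2 lower, and Smad3, Acvr2b, Chrdl1 and Fst missed the threshold (adjusted p 0.0608 to 0.0812).

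Signs that turned belonged to values that did not pass, except for Twsg1, at 0.70 with its most variable probe set. With single samples left out Smad2 ran from -0.072 to 0.26 in both fits, below 0 without hCG-0h sample 3 or hCG-6h sample 1 (-0.053), and Smad5 was 0.25 with its most variable probe set. Of the Bmpr1a probe sets, with single samples left out, 1425493_at ran from -0.092 to 0.14 and 1425494_s_at from -0.11 to 0.22, both below 0 without hCG-0h sample 1, and the latter was -0.053 with hCG-6h sample 1 alone. The probe set 1445413_at ran from -0.46 to 0.16, above 0 without hCG-0h sample 3 or hCG-6h sample 1 (0.06). With that sample alone 1 Smad3 probe set was -0.14 and 1 Smad4 probe set 0.12. Bmp15 was 0.0056 with the mean of probe sets and ran from -0.078 to 0.0067 with single samples left out. The causes were not tested.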
